A study of Mus musculus with 24 samples.

Results

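The genes examined here are the protein-coding mouse genes that start between 20 and 60 Mb on chromosome 6 (GRCm38 coordinates, GENCODE M21 gene models) and that reached a sum of at least 10 estimated reads in at least 6 libraries. The stretch holds 343 protein-coding genes, of which 200 reached that number of reads. Of these, 10 were left out by name (Atp6v0e2, Gpnmb, Npy, Hnrnpa2b1, Tra2a, Luc7l2, Mkln1, Gpr37, Ndufa5 and Ndufb2), which left 190 members out of 15352 protein-coding genes with enough reads in the whole genome. Another 543 such genes lie on the rest of chromosome 6. The stretch was proposed with the results of the human TDP-43 comparisons of these same libraries known. Its counts in those comparisons are therefore a description of the genes chosen, and no test of the stretch is given.

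The libraries were made from poly-A selected RNA of frontal cortex from 24 mice, 6 of each genotype and, within each genotype, 3 females and 3 males. The genotypes were Grn+/+ without the human TDP-43 transgene (hTDP-), aged 9.44 to 10.79 months, Grn+/+ with it (hTDP+), aged 9.44 to 10.07 months, Grn+/- hTDP-, aged 8.19 to 10.79 months, and Grn+/- hTDP+, aged 9.44 to 10.07 months. All 4 were littermates from a cross of Grn+/- mice with hTDP mice, and every brain was perfused with saline and frozen. Grn encodes progranulin, a secreted and lysosomal protein, and TDP-43 is an RNA-binding protein that acts in splicing and RNA stability. Exact ages were shared between mice: all 12 transgenic mice were 9.44 or 10.07 months old, as were 6 of the 12 others, of which only 1 was Grn+/-. Neither the promoter that drives the transgene nor the chromosome on which it lies is given in the labels used here.

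The stretch is a mosaic of genes with unrelated jobs. It contains the Hoxa cluster, which patterns the body axis in the embryo and is largely silent in adult cortex, the Gimap cluster of GTPases of immune and endothelial cells, and a cluster of zinc finger transcription factor genes. Imprinted genes, expressed from the copy of 1 parent, occur in it too: Mest, and Nap1l5, which lies inside an intron of Herc3 on the other strand. Kcnd2, for a subunit of fast inactivating neuronal potassium channels, and Ptn, which encodes the secreted growth factor pleiotrophin, stand beside housekeeping genes such as Atp6v1f, a subunit of the proton pump that acidifies vesicles.

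Libraries held 61445842 to 100859149 estimated reads. Grn was at 34.7 to 60.5 CPM (reads scaled by library size) in the Grn+/+ mice and at 13.8 to 32.9 CPM in the Grn+/- mice, with no overlap, and the human TARDBP transcript was at 0 to 2 reads in the mice without the transgene and at 4328 to 8162 reads in those with it, so both genotypes matched their labels in every library. The 6 cortical excitatory markers summed to 1325 to 1673 TPM over the 24 libraries. The library of Grn+/+ hTDP+ replicate 2 stood apart: only 40188 of its transcripts had any reads, where the other 23 libraries had 65994 to 69846, and 182 of the 190 members above 0 against 189 or 190. Some of the results that change without it are given both ways. In bulk tissue, fewer cells of a type and less RNA per cell cannot be told apart.

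Members spanned a wide range of expression. Their mean length-corrected abundance (TPM) ran from 0.0742 for Epha1, an ephrin receptor, to 406 for Nap1l5, with a median of 13.5. After Nap1l5 came Atp6v1f at 352 TPM, Ptn at 328 TPM, the small GTPase gene Arf5 at 244 TPM and Mtpn, which encodes myotrophin, at 214 TPM. Of the 190 members, 189 passed the filter on low counts and were tested. Vmn1r4, a pheromone receptor gene with a mean of 8.08 reads, was not. Among those tested, 120 had a mean above 10 CPM and 25 were below 1 CPM. Their median standard deviation (SD) of log2 CPM between mice of a group was 0.141, against 0.164 over all 18239 genes tested. At a mean of at least 1 CPM it was 0.124 for 164 members and 0.126 for 14216 genes. The members' summed abundance stayed between 5832 and 6582 TPM in all libraries.

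Averaged over both Grn genotypes, mice with the transgene had higher Rarres2, which encodes the secreted protein chemerin, and lower Pot1a, a telomere protein gene, and Scrn1, which encodes secernin 1. These 3 of 189 members (1.59%) were called by edgeR at an adjusted p under 0.05, while 0.11% of all genes tested were called. An unadjusted p under 0.05 was reached by 46 members (24.3%), while 7.86% of all genes reached it. Of these members 14 (7.41%) were higher and 32 (16.9%) lower with the transgene, against 3.62% and 4.24% of all genes. An unadjusted p under 0.001 was reached by 12 members (6.35%), against 0.356% of all genes. Most of these differences were small. The median size of a member's log2 change was 0.0651 against 0.0552 over all genes, with a median standard error (SE) of 0.0557 for the members. The signed median was −0.015 against 0.003, and 107 of 189 members (56.6%) were below 0 against 48.4% of all genes. Leaving out Grn+/+ hTDP+ replicate 2 gave 4 called members, with Chn2 added, and 45 at an unadjusted p under 0.05. Over all genes that fit called 22, and 7.23% had an unadjusted p under 0.05. With age as a factor, a term for each exact age, edgeR called 0 members and 2 of all genes. In that fit 20 members (10.6%) had an unadjusted p under 0.05, against 2.06% of all genes. All 24 mice stayed in that fit, but only 6 of the 12 mice without the transgene shared an age with transgenic mice.

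**Figure D1:**
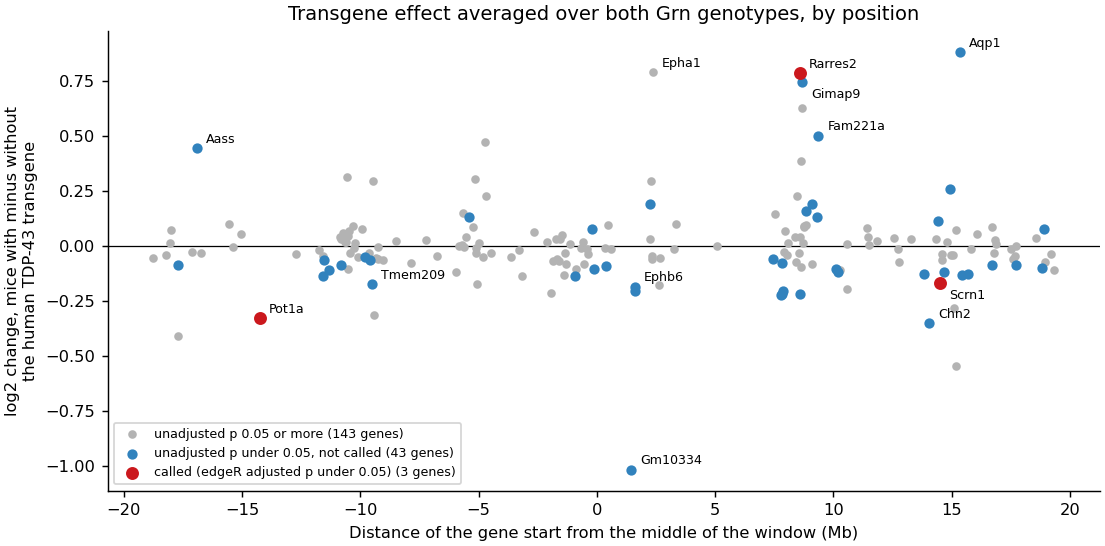
Log2 change with the human TDP-43 transgene, averaged over both Grn genotypes, of the 189 members tested (vertical axis) against the distance in Mb of each gene's start from the middle of the stretch (horizontal axis); a point is a gene. The 3 called genes are red, the 43 others at an unadjusted p under 0.05 are blue, and most points lie within 0.25 of 0 along the whole stretch.

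The genes at low unadjusted p were not spread evenly. Between 45 and 50 Mb 12 of 31 members had an unadjusted p under 0.05, 6 higher and 6 lower, and between 50 and 55 Mb 8 of 24 did, 2 higher and 6 lower. Between 55 and 60 Mb it was 7 of 25, between 40 and 45 Mb 5 of 17, and between 25 and 30 Mb 5 of 23, all 5 of them lower. The share was lowest from 35 to 40 Mb, with 3 of 30, beside 4 of 27 from 30 to 35 Mb and 2 of 12 from 20 to 25 Mb. The median log2 change of a 5 Mb step lay between −0.04 and 0.04 throughout. It was above 0 from 45 to 50 Mb, and below 0 in the other steps; with length-scaled counts it was also above 0 from 25 to 30 Mb (0.010).

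The 10 Mb steps next to the stretch held few genes and none at a low p. From 10 to 20 Mb 0 of 20 protein-coding genes tested reached an unadjusted p under 0.05, and from 60 to 70 Mb 0 of 13 did. Farther away, it was 4 of 31 from 0 to 10 Mb and 8 of 36 (22.2%) from 70 to 80 Mb. Inside the stretch, 7 of 57 members (12.3%) from 30 to 40 Mb reached it. Outside the stretch, 46 of 541 tested protein-coding genes of chromosome 6 (8.5%) reached it, and over the genome 1276 of 15256 (8.36%). Chromosome 6 had the largest share of any chromosome at 13.0%, with chromosome 18 next at 12.6% and chromosome 14 smallest at 6.38%. That 13.0% includes the stretch, which was chosen with these results known, and the 10 genes left out by name. The first member, Kcnd2 at 21215503, and the last, Gprin3 at 59347226, had log2 changes of −0.06 and −0.11. Just before the stretch lay Lsm8 (0.08), which was not called.

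**Figure D2:**
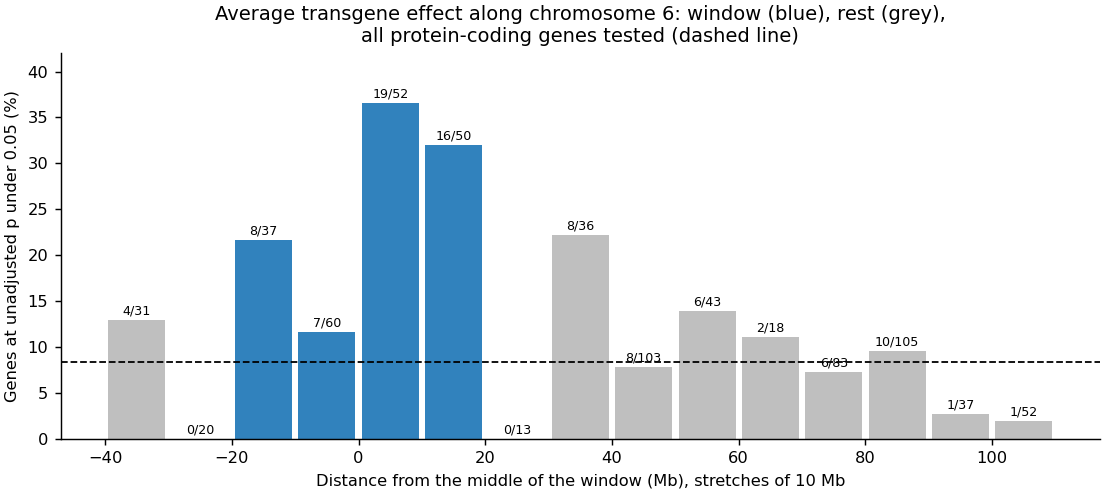
Percent of protein-coding genes at an unadjusted p under 0.05 for the average transgene effect (vertical axis) in 10 Mb steps along chromosome 6, placed by distance from the middle of the stretch (horizontal axis); numbers above the bars are genes at that p over genes tested. Blue bars cover the stretch and include the 10 genes left out by name; they reach 19 of 52 and 16 of 50 in its second part, while the dashed line marks 8.36% over the genome.

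Pot1a encodes a protein that binds the single-stranded end of telomeres as part of the shelterin complex. The gene (ENSMUSG00000029676.15) lies at chr6:25743737-25809246 on the minus strand. The bases just before its outermost start are shown because it was the called member with the cleanest separation. The sequence is from RefSeq, GRCm38.p6, chr6:25809247-25809468, minus strand, and capitals mark the GC box found in it.

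Pot1a: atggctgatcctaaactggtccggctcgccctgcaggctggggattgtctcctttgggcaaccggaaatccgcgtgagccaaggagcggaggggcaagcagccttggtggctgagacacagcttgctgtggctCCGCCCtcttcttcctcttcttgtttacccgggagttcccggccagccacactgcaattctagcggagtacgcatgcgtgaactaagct

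The search looked on both strands for the GC box (GGGCGG), the CCAAT box (CCAAT) and the TATA box (TATAAA) in up to 250 bases before the start. Of all promoters cut to the same length, 28.8% held a GC box. Without that cut it was in 128 of 224 promoters of the members (57.1%), against 32.7% of all promoters. The members are protein-coding genes with enough reads in this tissue, a rule not applied to all promoters. A share for other genes meeting that rule was not computed, so the gap is not shown to be a trait of the stretch. A match describes the letters in this window only.

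In Grn+/+ mice Pot1a was at 12.8, 14 and 15.2 CPM (lowest, median and highest) without the transgene and at 10.2, 11.3 and 12.1 CPM with it. The Grn+/- mice had 12.3, 13.2 and 14.7 CPM without the transgene and 8.98, 11.1 and 12.1 CPM with it. All 12 transgenic mice were below all 12 mice without the transgene. This was the only member for which the 12 and 12 did not overlap, a pattern seen in 0.0329% of all genes. The level fell from 13.7 ± 0.945 to 10.9 ± 1.06 CPM (SD, n = 12 each), a ratio of 0.797, or −0.33 on the log2 scale (SE 0.0519, edgeR adjusted p = 0.00531). The call was lost with length-scaled counts (edgeR adjusted p = 0.0818) and with age as a factor (log2 change −0.36, edgeR adjusted p = 0.668). Separately, the log2 change was −0.33 in each Grn genotype, with edgeR adjusted p = 0.228 in Grn+/+ and 0.460 in Grn+/- mice. Its main transcript, Pot1a-203, which carried 68.9% of the gene's TPM without the transgene, was at 7.72 ± 0.825 TPM without and 5.98 ± 0.802 TPM with the transgene (SD, n = 12 each; edgeR adjusted p = 0.0898 over all transcripts). Of 11 telomere end-binding genes tested, Pot1a included, it alone was called. The paralog Pot1b, on another chromosome, had a log2 change of −0.03, and the duplex telomere binders Terf1 and Terf2 had −0.01 and 0.05.

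Scrn1 encodes secernin 1, a cytosolic protein abundant in neurons and linked to exocytosis. The gene (ENSMUSG00000019124.10, chr6:54501173-54566489, minus strand) overlaps Wipf3, a gene for an actin regulator, on the plus strand. Its promoter bases are given beside those of Pot1a because both fell (RefSeq, GRCm38.p6, chr6:54566490-54566632, minus strand); capitals mark 2 GC boxes, a motif in 15.7% of all promoters cut to that length.

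Scrn1: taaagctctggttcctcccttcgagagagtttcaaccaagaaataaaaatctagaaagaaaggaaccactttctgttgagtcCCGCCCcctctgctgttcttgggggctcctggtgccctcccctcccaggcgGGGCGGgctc

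In Grn+/+ mice Scrn1 was at 317, 334 and 360.0 CPM (lowest, median and highest) without the transgene and at 283, 298 and 314 CPM with it, and these groups did not overlap. Among Grn+/- mice it was at 301, 326 and 343 CPM without the transgene and at 258, 289.7 and 313 CPM with it, and here the ranges overlapped. Of the 12 transgenic mice, 9 were below the lowest mouse without the transgene. The level fell from 329.5 ± 17.0 to 293 ± 15.0 CPM (SD, n = 12 each), a ratio of 0.891, or −0.17 on the log2 scale (SE 0.0297, edgeR adjusted p = 0.0141). With age as a factor it was −0.18 and not called (edgeR adjusted p = 0.810). The change was −0.17 in Grn+/+ and −0.16 in Grn+/- mice. Scrn1-201, the transcript with 96.8% of the gene's TPM, fell by the same −0.17 on the log2 scale (edgeR adjusted p = 0.0390, limma-voom adjusted p = 0.0257). Reads shared with Wipf3 cannot be told apart if the libraries kept no strand. Wipf3 itself was at 134 ± 12.3 and 145 ± 11.5 CPM (SD, n = 12 each), a log2 change of 0.11, of the opposite sign (edgeR adjusted p = 0.613). The other secernin genes, Scrn2 and Scrn3, had log2 changes of 0.17 and −0.05 and were not called, though Scrn2 reached an unadjusted p under 0.05.

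Rarres2 encodes chemerin, a secreted protein that draws immune cells through the receptor Cmklr1. The gene (ENSMUSG00000009281.6, chr6:48569696-48572789, minus strand) was a low-level transcript in this tissue. In Grn+/+ mice it was at 1.26, 1.73 and 2.03 CPM (lowest, median and highest) without the transgene and at 2.63, 3.67 and 5.87 CPM with it. These groups of 6 did not overlap. For Grn+/- mice the values were 1.82, 1.93 and 3.42 CPM without the transgene and 2.43, 2.93 and 3.29 CPM with it, and the single highest mouse of that pair had no transgene. Over both genotypes the level rose from 1.96 ± 0.525 to 3.38 ± 1.01 CPM (SD, n = 12 each), a ratio of 1.72, or 0.78 on the log2 scale (SE 0.134, edgeR adjusted p = 0.00946). The call was lost with length-scaled counts (edgeR adjusted p = 0.0704) and with age as a factor (log2 change 0.77, edgeR adjusted p = 0.803). In Grn+/+ mice the log2 change was 1.17 (edgeR adjusted p = 0.0117), and in Grn+/- mice it was 0.40 (edgeR adjusted p = 1). The difference between these changes, −0.77, did not pass the test over all genes (unadjusted p = 0.00861, edgeR adjusted p = 1.0).

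The highest Rarres2 value came from Grn+/+ hTDP+ replicate 2, the library with few transcripts. Without it the average log2 change was 0.70 (edgeR adjusted p = 0.0175) and the change in Grn+/+ mice was 1.0 (edgeR adjusted p = 0.0453). The difference between the changes in the Grn genotypes was then −0.61 and was not called. Without Grn+/+ hTDP- replicate 4 the change in Grn+/+ mice was 1.08 and no longer called (edgeR adjusted p = 0.0568). A transcript annotated as a retained intron, Rarres2-202, rose from 0.503 ± 0.114 to 1.05 ± 0.374 TPM (SD, n = 12 each), a log2 change of 1.05 (edgeR adjusted p = 0.0271, but limma-voom adjusted p = 0.102); it made up 7.94% of the gene's TPM without the transgene. Lrrc61, which overlaps Rarres2 on the other strand, was at 20.1 ± 1.55 and 19.6 ± 1.79 CPM. The chemerin receptor genes Cmklr1, Gpr1 and Ccrl2 had log2 changes of −0.16, 0.01 and 0.11, none called.

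Markers of other cell types are given for the same comparison, in which none was called. The 8 meningeal and mural markers all had a log2 change above 0, with a median of 0.23. Their summed level was 93.1 to 132 TPM in Grn+/+ hTDP-, 99.1 to 182 TPM in Grn+/+ hTDP+, 96.0 to 167 TPM in Grn+/- hTDP- and 109 to 186 TPM in Grn+/- hTDP+ mice. Of 6 tested choroid plexus and ependyma markers, 5 were above 0 (median 0.41), at 4.53 to 18.3, 5.83 to 35.2, 4.42 to 23.1 and 4.58 to 8.63 summed TPM in the same order, with Folr1 under 10 reads on average. All 7 oligodendrocyte markers were above 0 (median 0.27; 859 to 2221, 1450 to 3066, 931 to 4176 and 805 to 2277 summed TPM). The 3 blood markers were above 0 (median 0.38), and 4 of 5 striatal markers were (median 0.16). All 6 excitatory markers were below 0 (median −0.06), as were 4 of 6 inhibitory ones (median −0.03). Astrocyte markers were above 0 in 4 of 5 and microglial markers in 1 of 5. Of the T cell markers only 2 could be tested, with Cd3e, Cd3g and Cd8a under 10 reads. The part of these cells in the results for Rarres2, Scrn1 and the other members was not tested.

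Aass encodes the bifunctional mitochondrial enzyme that begins the main route of lysine breakdown. It lies at chr6:23072173-23132986 on the minus strand (ENSMUSG00000029695.13) and was the largest higher change among members of at least 1 CPM after Rarres2 with an unadjusted p under 0.001. Its promoter is printed as the counterpart of the lower genes (RefSeq, GRCm38.p6, chr6:23132987-23133236, minus strand); capitals mark 2 CCAAT boxes in reverse orientation (ATTGG), a motif in 33.8% of all promoters of that length, and no GC box was found in this window.

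Aass: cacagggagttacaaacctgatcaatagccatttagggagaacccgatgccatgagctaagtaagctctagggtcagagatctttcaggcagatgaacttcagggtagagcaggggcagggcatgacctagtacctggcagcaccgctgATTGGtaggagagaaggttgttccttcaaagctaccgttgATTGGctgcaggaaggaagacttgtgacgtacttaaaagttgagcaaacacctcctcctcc

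In Grn+/+ mice Aass was at 2.83, 3.34 and 3.93 CPM (lowest, median and highest) without the transgene and at 3.63, 4.34 and 5.76 CPM with it. In Grn+/- mice it was at 2.92, 3.26 and 4.0 CPM without the transgene and at 3.79, 4.15 and 6.63 CPM with it. The ranges overlapped narrowly in both, and 8 of 12 transgenic mice were above the highest mouse without the transgene. The means were 3.33 ± 0.405 and 4.55 ± 0.946 CPM (SD, n = 12 each), a log2 change of 0.44 (SE 0.0938) that missed the threshold (edgeR adjusted p = 0.0745), with 0.45 in Grn+/+ and 0.43 in Grn+/- mice. Aass was called with age in months as a linear term in the model, but not with age as a factor (edgeR adjusted p = 0.869).

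**Figure D3:**
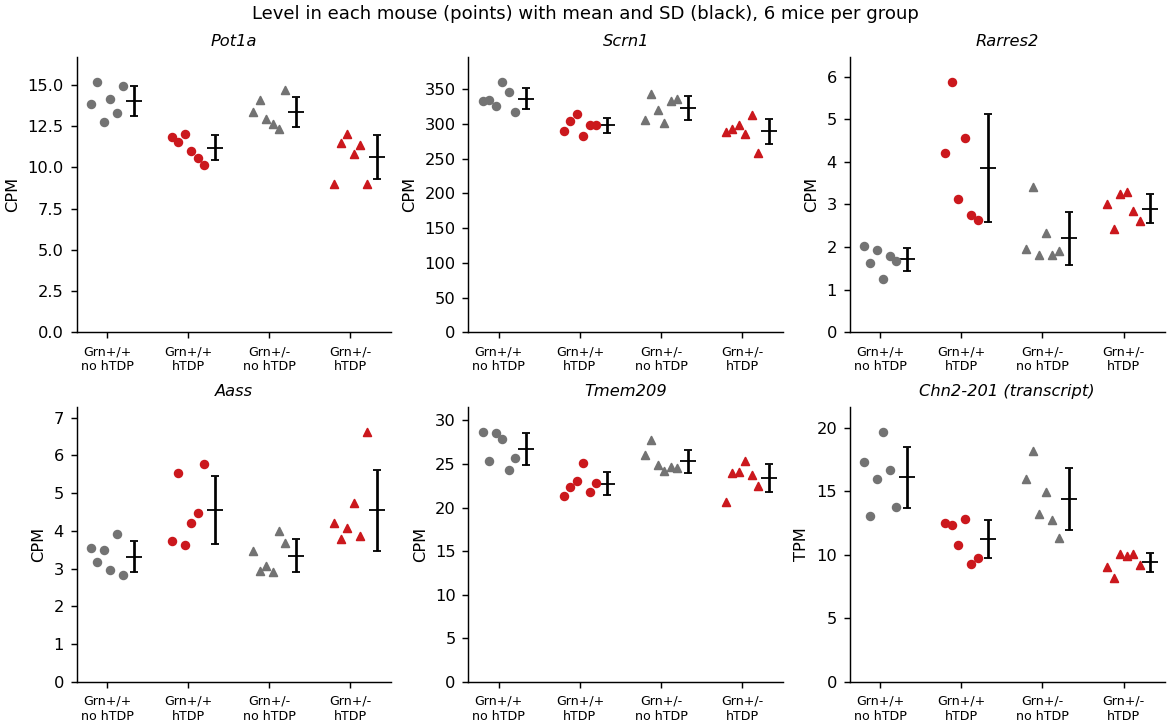
Level of 5 genes (CPM) and of the transcript Chn2-201 (TPM) in each of the 24 mice, by genotype (grey without and red with the transgene, circles Grn+/+ and triangles Grn+/-); black bars are the mean and SD of 6 mice, and each vertical axis starts at 0. Pot1a is lower in all 12 transgenic mice than in all 12 others, while the groups of Aass and Tmem209 overlap.

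The remaining members at an unadjusted p under 0.001 were mostly lower with the transgene and none was called. Tmem209, for a protein of the nuclear envelope, was at 26 ± 1.7 CPM without and 23.1 ± 1.45 CPM with the transgene (SD, n = 12 each), with 10 of 12 transgenic mice below the lowest other mouse (log2 change −0.17, edgeR adjusted p = 0.0934). In Grn+/+ mice it was at 24.3, 26.8 and 28.7 CPM against 21.3, 22.6 and 25.1 CPM (lowest, median and highest), and in Grn+/- mice at 24.1, 24.8 and 27.7 against 20.7, 23.8 and 25.4 CPM. Ephb6, a kinase-inactive ephrin receptor gene, was at 246 ± 15.8 and 216 ± 18.1 CPM (log2 change −0.18, edgeR adjusted p = 0.176). The zinc finger genes Zfp775 and Zfp786 were at 7.97 ± 0.617 against 6.84 ± 0.641 CPM and at 5.2 ± 0.421 against 4.48 ± 0.349 CPM, a log2 change of −0.22 for each (edgeR adjusted p = 0.164 and 0.243). Gcc1, which encodes a trans-Golgi coiled-coil protein and overlaps Arf5 on the other strand, had 26.2 ± 1.12 and 23.8 ± 1.60 CPM (log2 change −0.14, edgeR adjusted p = 0.260). The values of Gcc1, and of the trypsinogen family gene Gm10334 (1.01 ± 0.329 and 0.509 ± 0.235 CPM, log2 change −1.02, edgeR adjusted p = 0.125), were chosen after they were seen, and Gm10334 may share reads with near-identical copies. Fam221a, a gene of little known function, was at 0.632 ± 0.117 CPM without and 0.890 ± 0.142 CPM with the transgene (log2 change 0.50, edgeR adjusted p = 0.115); it was called with length-scaled counts. In Grn+/- mice its groups did not overlap, with 0.475 to 0.629 CPM without and 0.763 to 1.17 CPM with the transgene.

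The other members among the 10 highest changes at a mean of at least 1 CPM were not called either. Slc13a4, a sulfate transporter gene, was at 5.31 ± 3.42 and 7.34 ± 4.65 CPM without and with the transgene (SD, n = 12 each), a log2 change of 0.47, or 0.25 without Grn+/+ hTDP+ replicate 3. Flnc, which encodes the actin cross-linker filamin C, was at 1.40 ± 0.454 and 1.73 ± 0.527 CPM, and Clcn1, a chloride channel gene, at 1.66 ± 0.254 and 2.04 ± 0.619 CPM. Tmem140 was at 0.894 ± 0.165 and 1.11 ± 0.413 CPM, a log2 change of 0.30, or 0.17 without Grn+/+ hTDP+ replicate 2. These 4 had an unadjusted p above 0.05. Gstk1, for a mitochondrial and peroxisomal glutathione transferase, was at 4.37 ± 0.273 and 5.0 ± 0.748 CPM, and Malsu1, for a factor of mitochondrial ribosome assembly, at 9.22 ± 0.45 and 10.5 ± 1.61 CPM; their log2 change was 0.19 each, and that of Malsu1 was 0.12 without the same library. Trpv6, a calcium channel gene, was at 2.94 ± 0.310 and 2.56 ± 0.375 CPM, a log2 change of −0.20 that was not called.

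Chn2 encodes beta-chimaerin, a protein that switches off the small GTPase Rac, and is annotated with several start sites. At the gene level it was at 34.5, 39.99 and 52.6 CPM (lowest, median and highest) in Grn+/+ hTDP- mice, at 28.5, 33.9 and 52.8 CPM in Grn+/+ hTDP+, at 34.2, 39.1 and 54.1 CPM in Grn+/- hTDP- and at 24, 29.4 and 32.3 CPM in Grn+/- hTDP+ mice. Only the pair of Grn+/- groups did not overlap. The average log2 change was −0.35 (SE 0.0862, edgeR adjusted p = 0.194), and without Grn+/+ hTDP+ replicate 2, the highest of its group, it was −0.42 and called (edgeR adjusted p = 0.0175).

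Its transcripts differed. Chn2-201, which starts at chr6:54039573, was at 13.0, 16.3 and 19.7 TPM (lowest, median and highest) in Grn+/+ hTDP- mice and at 9.27, 11.6 and 12.8 TPM in Grn+/+ hTDP+ mice, with no overlap. The Grn+/- mice had 11.3, 14.1 and 18.1 TPM without and 8.16, 9.56 and 10.1 TPM with the transgene, again with no overlap. Over both Grn genotypes the 12 transgenic mice and the 12 others did overlap (highest 12.8 against lowest 11.3 TPM). Chn2-201 fell from 15.2 ± 2.49 to 10.3 ± 1.49 TPM (SD, n = 12 each), −0.55 on the log2 scale (SE 0.0765, edgeR adjusted p = 0.00242, limma-voom adjusted p = 0.00388). Chn2-202, which starts downstream at chr6:54272490, was at 15.5 ± 2.93 and 13.1 ± 3.74 TPM, a log2 change of −0.23 (edgeR adjusted p = 0.895). In Grn+/+ and Grn+/- mice its log2 change was −0.01 and −0.45, beside −0.50 and −0.59 for Chn2-201. Its highest value, 23.7 TPM, came from Grn+/+ hTDP+ replicate 2, the library with few transcripts, where the median of that group was 13.5 TPM. Transcripts were not tested without that library. The share of the gene's TPM was 46.4% without and 40.4% with the transgene for Chn2-201, and 47.1% and 51.2% for Chn2-202. Of 533 member transcripts tested, edgeR called 3, Chn2-201, Scrn1-201 and Rarres2-202, beside 0.039% of all transcripts. limma-voom called 2 of them, Chn2-201 and Scrn1-201, beside 0.0448% of all transcripts. A difference between the changes of the Chn2 transcripts was not tested.

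Some neighbouring members had changes of the same sign. These runs were picked after their values were seen and are only described. From position 47796141 on, 4 adjacent genes had an unadjusted p under 0.05 and lower values with the transgene: Pdia4, for a disulfide isomerase of the endoplasmic reticulum (31.1 ± 3.12 and 26.7 ± 3.01 CPM, log2 change −0.22), Zfp786 (−0.22), Zfp398 (−0.08) and Zfp282 (19.1 ± 0.960 and 16.6 ± 1.81 CPM, −0.20, or −0.16 without Grn+/+ hTDP+ replicate 2). The zinc finger genes that followed, Zfp212, Zfp956, Zfp777 and Zfp746, had log2 changes of −0.03, 0.07, −0.04 and 0.01. From 48.8 to 49.4 Mb higher values followed among the members, with Tmem176b (0.16), Tmem176a (0.09), Malsu1 (0.19), Ccdc126 (0.13) and Fam221a (0.50), around Igf2bp3 at −0.08. Of the genes left out by name, Gpnmb (−0.67, edgeR unadjusted p = 0.00093) and Tra2a (0.01) also start there. The chromosome thus holds no unbroken run of higher genes at this place. Around Scrn1 directions were mixed among members at an unadjusted p under 0.05: Tril −0.13, Chn2 −0.35, Wipf3 0.11, Scrn1 −0.17, Mturn −0.12 and Nod1 0.26. Members there at a higher p are left out. Aqp1, a water channel gene of choroid plexus and some astrocytes, was at 0.223 ± 0.076 and 0.428 ± 0.220 CPM (log2 change 0.88), next to the neuronal genes Adcyap1r1 and Neurod6 at −0.13 each. At the far end Herc3 was at 235 ± 16.7 and 219 ± 21 CPM (log2 change −0.10) and Nap1l5, inside it, at 330 ± 17.8 and 348 ± 22.4 CPM (0.08). None of the genes in these runs other than Scrn1 was called.

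Within the lists by function given here, the only called gene was Rarres2, while Pot1a and Scrn1 were in none of these lists. The counts below stand beside 24.3% of all members tested at an unadjusted p under 0.05 and 56.6% below 0, and 7.86% and 48.4% of all genes. None of the 12 listed Hoxa cluster genes and Evx1 had enough reads to be a member. All 6 Gimap genes tested were above 0, with a median log2 change of 0.24 and 1 of 6 at an unadjusted p under 0.05. That was Gimap9 (0.75), at 0.158 ± 0.064 and 0.268 ± 0.163 CPM, and Gimap6, at 0.01, was lowest. Of 14 zinc finger genes 11 were below 0 (median −0.05), and 4, all lower, had an unadjusted p under 0.05. Of 5 imprinted genes 4 were below 0. Among 23 neuronal signalling and synapse genes 15 were below 0 (median −0.05), with 1 higher and 7 lower at an unadjusted p under 0.05. Of 17 vesicle, cytoskeleton and nuclear transport genes 15 were below 0 (median −0.03), yet only 1 had an unadjusted p under 0.05. The 21 glial and vascular genes had 14 above 0 (median 0.04) and, at an unadjusted p under 0.05, 5 higher, Rarres2 among them, and 2 lower. Chromatin and transcription genes (10 of 16 above 0), a mostly mitochondrial list (6 of 12), ubiquitin system genes (4 of 10) and kinases and phosphatases (2 of 9) had medians between −0.03 and 0.02. The mostly mitochondrial list also held Mturn (−0.118), Impdh1 (−0.085) and Ggct (−0.039), which are not mitochondrial genes, so its even split does not describe mitochondrial genes alone.

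The transgene was compared separately in Grn+/+ and in Grn+/- mice, which share no animals. The stretch was proposed with transgene results known, and the average is made from these same comparisons. Their agreement among the members is therefore only described and is no replication. In Grn+/+ mice edgeR called 1 of 189 members, Rarres2, against 0.0329% of all genes. An unadjusted p under 0.05 was reached by 30 members (15.9%) against 7.83% of all genes. In Grn+/- mice edgeR called 0 members, against 0.0219% of all genes, limma-voom 0 and DESeq2 1 (Pot1a). Of all genes, limma-voom called 4 and DESeq2 9 in these mice. There 20 members (10.6%) had an unadjusted p under 0.05, against 2.38% of all genes. The sign of the log2 change was the same in both genotypes for 127 of 189 members (67.2%), against 59.8% of all genes. Both an unadjusted p under 0.05 and the same sign in both were found for 12 members (6.35%), against 0.603% of all genes: Aass and Rarres2 higher, and Ephb6, Gcc1, Gm10334, Pdia4, Pot1a, Scrn1, Tmem209, Zfp282, Zfp775 and Zfp786 lower. These are 40% of the 30 and 60% of the 20. Over all genes the 110 that met this made up 7.70% and 25.3% of the corresponding genes.

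Across the 189 members the log2 changes in Grn+/+ and in Grn+/- mice had a Pearson correlation of 0.487, against 0.0313 across all 18239 genes. At a mean of at least 1 CPM it was 0.449 for 164 members and −0.027 for 14216 genes. These are correlations across genes, which are not independent replicates, within a stretch chosen from the transgene comparison, so no p is given. The groups of 6 did not overlap for 4 members (2.12%) in Grn+/+ mice, against 0.504% of all genes, and for 3 members (1.59%) in Grn+/- mice, against 0.192%.

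**Figure D4:**
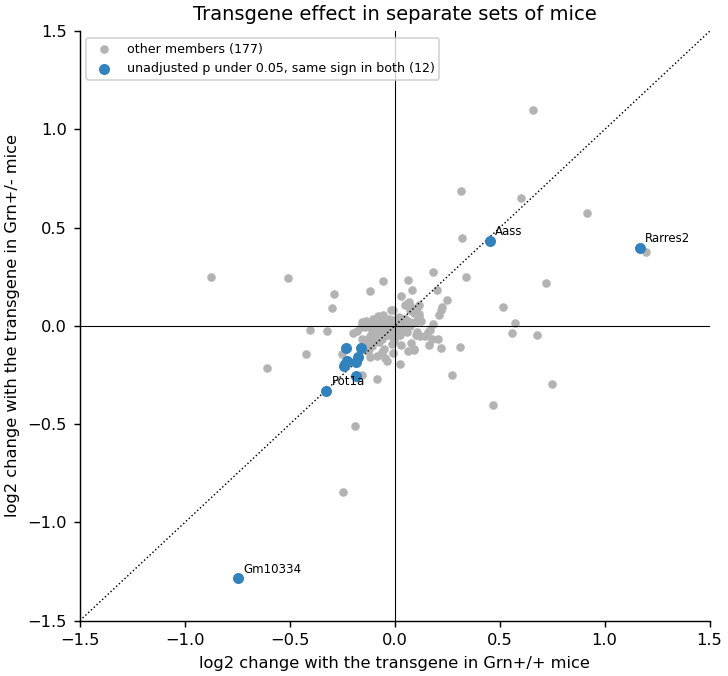
Log2 change of each of the 189 members with the transgene in Grn+/+ mice (horizontal axis) and in Grn+/- mice (vertical axis); a point is a gene, and the dotted line marks equal change. The 12 genes at an unadjusted p under 0.05 with the same sign in both are blue, with Aass and Pot1a near the dotted line and Rarres2 farther along the Grn+/+ axis.

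In the Grn comparisons and the interaction no member was called. The stretch was proposed with the transgene results known, and whether Grn results were also known then is not given. The interaction is the difference between the transgene changes in the 2 Grn genotypes. Averaged over the transgene, edgeR called 0 of 189 members (0.0219% of all genes), and 12 members (6.35%) had an unadjusted p under 0.05 against 4.93% of all genes. Without the transgene edgeR called 0 members (0.011% of all genes), with 8 (4.23%) at an unadjusted p under 0.05 against 3.41%. With the transgene it called 0 (0.00548% of all genes), with 7 (3.70%) against 3.37%. For the interaction of Grn and transgene it called 0 of the members and 0 of all genes, with 5 members (2.65%) at an unadjusted p under 0.05 against 2.38%. DESeq2 and limma-voom also called 0 members in each of these 4. In the same order DESeq2 called 9, 6, 5 and 3 of all genes, and limma-voom 4, 2, 1 and 0. The members' median log2 difference between Grn+/- and Grn+/+ mice was 0.00, with 94 above and 95 below 0.

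**Figure D5:**
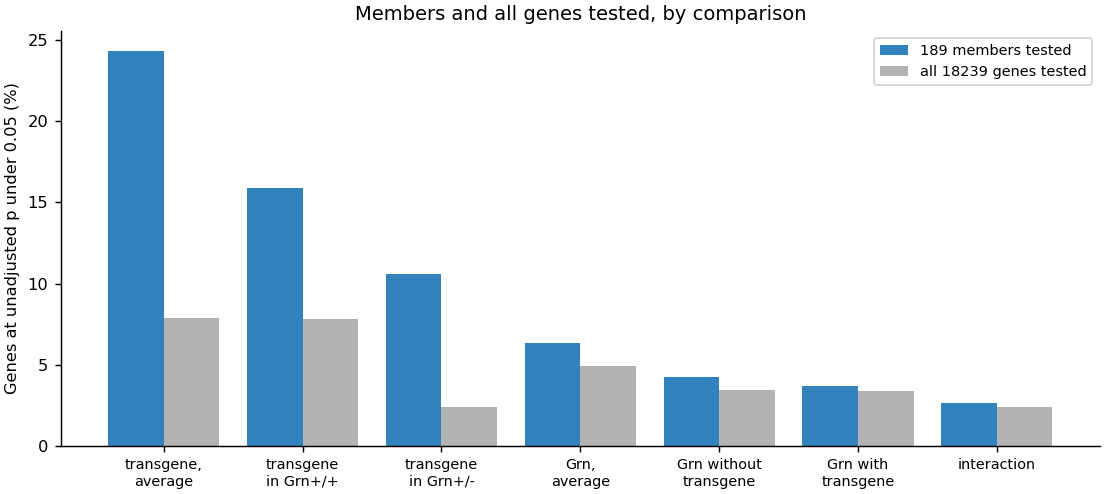
Percent of genes at an unadjusted p under 0.05 (vertical axis, from 0) in each of the 7 comparisons, for the 189 members (blue) and all 18239 genes tested (grey). The members reach 24.3%, 15.9% and 10.6% in the 3 transgene comparisons and 2.65% to 6.35% in the 4 others. Results of the transgene comparisons were known when the stretch was proposed.

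The members with the smallest p in these comparisons are given by their values. Ptn was at 229 ± 10.3 CPM in Grn+/+ hTDP- and 227 ± 16.3 CPM in Grn+/+ hTDP+ mice, against 249.8 ± 14.8 and 244 ± 12.8 CPM in the matching Grn+/- mice (SD, n = 6 each). Its average log2 difference was 0.12 (unadjusted p = 0.00275, edgeR adjusted p = 0.926). Wasl, which encodes N-WASP, an activator of actin branching, was at 152 ± 3.42 CPM in Grn+/+ hTDP- and 142 ± 1.82 CPM in Grn+/- hTDP- mice, with no overlap (147 to 156 against 139 to 144 CPM), and at 148 ± 6.67 and 145 ± 2.35 CPM in the transgenic mice. The log2 difference without the transgene was −0.10 (unadjusted p = 0.00223), and it was not called. Kbtbd2, for an adaptor of a ubiquitin ligase, had an average log2 difference of −0.11, and Vopp1 one of −0.09 without the transgene. Among transgenic mice the apoptotic protease gene Casp2 had −0.14 and Chn2 −0.32, or −0.18 without Grn+/+ hTDP+ replicate 2. For the interaction, Fmc1, a mitochondrial assembly factor gene, had −0.19.

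Nod1, a cytosolic sensor of bacterial peptidoglycan, was at 3.54 ± 0.536 CPM in Grn+/+ hTDP- and 5.2 ± 0.934 CPM in Grn+/+ hTDP+ mice (SD, n = 6 each). In Grn+/- mice it was at 4.10 ± 0.520 CPM without and 4.0 ± 0.69 CPM with the transgene. The log2 change with the transgene in Grn+/+ mice was 0.56 (unadjusted p = 0.000432, edgeR adjusted p = 0.315), and the interaction was −0.59 (unadjusted p = 0.00502). Neither passed the threshold, though DESeq2 called the change in Grn+/+ mice.

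At the limits of the read rule, Vmn1r4 (6 libraries with at least 10 reads) and Epha1 (7 libraries, mean 7.29 reads) were just inside. Ppp1r17 and Wee2 (3 libraries each; mean 4.38 and 4.83 reads) were nearest outside, followed by Hoxa7 and Gimap3 (2 libraries each). Of the 190 members, 78 overlap an annotated gene on the other strand, so their counts may hold reads of that gene if the libraries kept no strand. A RefSeq promoter was matched for 176 members, but not for Rarres2.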

How the data were processed

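Poly-A selected RNA of frontal cortex from 24 mice was measured, 1 library per mouse, over 149444 transcripts. Per the file headers, the authors deposited Salmon output: expected counts (estimated reads per transcript), TPM and other columns such as the effective length, an other unit that was used only for length scaling. STAR, SAMtools, Salmon and DESeq2 appear, with no version, in the submitters' processing notes. The genome build used by the authors is not given in the sources used here. The labels' protocols describe both directional and non-directional library steps.

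Transcripts were matched without version numbers to GENCODE M21 (GRCm38), which placed 138032 (92.4%) in 52352 genes. The deposited expected counts were added up over the transcripts of a gene and rounded to whole numbers. edgeR 4.0.16 (R 4.3.3) quasi-likelihood tests, two-sided, used TMM scaling, edgeR's default filter, a term per genotype and sex over all 24 libraries, and Benjamini-Hochberg adjustment over 18239 genes. Called means an adjusted p under 0.05. The 7 comparisons were the transgene (average, in Grn+/+ and in Grn+/- mice), Grn (average, without and with the transgene) and their interaction. Transcripts (51293 tested) were tested the same way and with limma-voom (limma 3.58.1). CPM values are TMM scaled. The edgeR script was tested on simulated data with known changes.

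The members, gene lists and tests were chosen with earlier results of these data known. Genes are named if called, among the 10 highest or lowest transgene changes at a mean of at least 1 CPM, among the 3 smallest p of another comparison, among the 5 highest TPM, at the ends of the stretch, or as examples of a list; others are said to be chosen after their values were seen. Libraries held 61445842 to 100859149 reads, and 25 members lie below 1 CPM. Alternatives were DESeq2 1.42.0, limma-voom, no low-count filter, length-scaled counts, age terms, only the groups compared, each sex alone and each library left out in turn. The count at an unadjusted p under 0.05 was recomputed as an alternative added after seeing the data. The mice were littermates and share exact ages, but the litter of each mouse is not given in the labels used here, so p-values measure the spread between mice.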

Additional observations from a re-analysis of the deposited data

Results flagged for a closer look

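In 15 of 132 groups of 6 mice checked (33 named genes in 4 genotypes), the highest or lowest mouse stood apart from the others, its gap to the nearest, as a share of the group's range, being above the 95% critical value of Dixon's test; chance gives about 1 in 20 such groups. Values are CPM. Grn+/+ hTDP+ replicate 2, the library with few transcripts above 0, was highest for Tmem140 (2.23), Malsu1 (15.3) and Chn2 (52.8) and lowest for Zfp282 (11.3). Without it the average log2 change with the transgene was 0.17 for Tmem140, 0.12 for Malsu1, −0.42 for Chn2 and −0.16 for Zfp282. Grn+/- hTDP- replicate 2 was highest for Rarres2 (3.42) and Chn2 (54.1) and lowest for Fmc1 (8.53). Grn+/- hTDP- replicate 4 was lowest for Trpv6 (2.34) and highest for Vopp1 (132), replicate 3 was lowest for Ptn (221), and replicate 6 was lowest for Zfp786 (4.51). Grn+/- hTDP+ replicate 6 was highest for Aass (6.63) and Tmem176b (25.6), and replicate 3 for Gstk1 (5.77). Grn+/+ hTDP- replicate 4 was highest for Chn2 (52.6). Chn2 thus had a single high mouse in 3 of the 4 groups.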

How the results depend on the processing

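Pot1a, Rarres2 and Scrn1 kept their direction in every alternative run, with average log2 changes of −0.36 to −0.30, 0.68 to 0.87 and −0.19 to −0.14, libraries left out in turn included. Their adjusted p ran from 2.18e-06 to 0.821, from 1.91e-05 to 0.821 and from 4.64e-05 to 0.821. Pot1a and Rarres2 lost the call with length-scaled counts (adjusted p = 0.0818 and 0.0704), and all 3 lost it with age as a factor or within 1 sex, which leaves fewer mice or degrees of freedom. Members called for the transgene average numbered 11 with DESeq2 (adding Aass, Chn2, Ephb6, Fam221a, Gm10334, Tmem209, Zfp775 and Zfp786), 5 with age as a linear term (adding Aass and Tmem209), 2 with length-scaled counts (Scrn1 and Fam221a), and 0 with age as a factor, in females or in males. Over all genes these settings called 61, 21, 15, 2, 1 and 3 in the same order, against 20 in the main fit. In Grn+/+ mice the members called numbered 5 with DESeq2 (Nod1, Pot1a, Rarres2, Scrn1 and Tmem209) and 0 from only the groups compared, in females or in males. There the calls over all genes were 27, 1, 0 and 2. In Grn+/- mice DESeq2 called 1 member and 9 of all genes. Members at an unadjusted p under 0.05 numbered 20 with age as a factor (10.6% against 2.06% of all genes), 33 in females (17.6% against 5.73%) and 30 in males (15.9% against 6.00%). limma-voom called 2 transcripts. The log2 change reversed for Slc13a4 in females (−0.21) and for Tmem140 with age as a factor (−0.067). The cause was not tested. Leaving out each library in turn gave 3 to 4 called members for the average and 0 to 1 in Grn+/+ mice, with 0 to 0 elsewhere, and 39 to 50 at an unadjusted p under 0.05. Over all genes these fits called 14 to 22 for the average and 4 to 7 in Grn+/+ mice. For the average, 6.16% to 9.68% of all genes had an unadjusted p under 0.05. With length-scaled counts the median of the step from 25 to 30 Mb was 0.010 and that from 40 to 45 Mb −0.062; over 40 to 50 Mb together it was 0.0075. No paired analysis was possible because replicate numbers were given in accession order; the exact ages that mice share were fitted as a factor instead.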
